A study of Mus musculus with 18 samples.

Results

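The 10 genes described here belong to the hypoxia-inducible factor (HIF) pathway. Hif1a, Epas1, Arnt, Vhl, Egln1, Egln2, Egln3 and Hif1an are of its oxygen-sensing arm, and Bnip3 and Bnip3l are HIF targets. They were chosen by symbol, as members of this pathway, from the 21938 protein-coding genes that GENCODE M21 places on mouse chromosomes 1 to 19, X and Y (GRCm38). Peaks of the histone demethylase KDM2A and of dimethylated lysine 36 of histone H3 (H3K36me2) were scored at each gene. The promoter windows held every base within 2 kb of an annotated transcription start site (TSS), and the gene body ran from the first to the last base of the gene.

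Splenic B cells of C57BL/6 mice with a working Mir155 gene (WT) were compared with B cells of Mir155-deficient mice (KO), which lack the microRNA in every cell of the animal. B cells had been purified by removing CD43, Ter119 and CD4 positive cells. All groups were then stimulated with anti-CD40 at 1 µg/ml, anti-IgM F(ab')2 at 5 µg/ml and IL-4 at 4 ng/ml and kept for 2 days at 1% O2 and 5% CO2. Chromatin was crosslinked with EGS and 1% formaldehyde, and 13.5 µg were used for KDM2A and 1 µg for H3K36me2. Each genotype had 3 peak lists per antibody, so 12 lists were used. Replicate 1 came from a male and replicates 2 and 3 from females in every group. The study drew on animals 6 to 25 weeks old, and the age behind each list was not given in the sources used here. Low oxygen was common to every group, and peaks do not measure transcription, so neither a response to hypoxia nor expression of these genes can be read from the lists. The lists also cannot show whether Mir155 was deleted.

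HIF is a dimer of an oxygen-labile alpha subunit, HIF-1α (Hif1a) or HIF-2α (Epas1), and the constitutive partner ARNT. When oxygen is present, the prolyl hydroxylases encoded by Egln1, Egln2 and Egln3 modify the alpha subunit, which the VHL ubiquitin ligase then recognises for degradation, and the asparaginyl hydroxylase encoded by Hif1an blocks its contact with coactivators. Bnip3 and Bnip3l encode mitophagy receptors of the outer mitochondrial membrane and are well known HIF targets, as are Egln1 and Egln3. The EGLN enzymes, HIF1AN and KDM2A belong to one superfamily of oxygen- and 2-oxoglutarate-dependent dioxygenases. KDM2A removes H3K36me2 and binds unmethylated CpG dinucleotides through a CXXC zinc finger, which places it at CpG-rich promoters.

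The lists differed between genotypes before any gene was considered. WT lists held 23372 to 29105 KDM2A peaks and KO lists 15387 to 21705. For H3K36me2, WT lists held 85387 to 94136 peaks that covered 4.17% to 5.32% of the genome, whereas KO lists covered 1.44% to 3.63%, with the male KO list the most extensive of the KO lists at 106720 peaks. The typical peak was similarly weak in all 12 lists, with median folds of 2.48 to 2.87. Genes that mark B cells had a KDM2A promoter peak in at least 2 WT lists in 6 of 6 cases, against 0 of 3 T cell, 0 of 3 myeloid and 0 of 2 erythroid genes, beside 47.7% of coding genes. For H3K36me2 the same count was 6 of 6 B cell, 3 of 3 myeloid, 0 of 3 T cell and 0 of 2 erythroid genes, beside 40.9% of coding genes, and the part of other cells in that signal was not tested. Read depth is unknown, and each library pooled the chromatin of many cells, so that a weaker peak cannot be told apart from a peak present in fewer cells.

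KDM2A was called at the promoters of all 10 genes in WT B cells. A promoter peak was present in at least 2 of 3 WT lists for 10 of 10 genes (47.7% of all coding genes), in at least 2 of 3 KO lists for 9 of 10 (41.7%), the exception being Hif1an, and in all 6 lists for 6 of 10 (26.4%), namely Hif1a, Arnt, Vhl, Egln2, Bnip3 and Bnip3l. Of the 60 combinations of gene and list, 54 had a KDM2A promoter peak. The peaks were modest, with folds between 2.36 and 4.28 over the local background, and 45 of the 62 KDM2A peaks in these windows had a −log10 q of at least 2. The promoters of Vhl, with the highest mean fold, and Hif1an, with the lowest mean fold and the fewest peaks, are shown next for the genes with an entry in the RefSeq promoter table (GRCm38.p6), as the bases outside annotated exons on the gene's strand with CpG in capitals. Vhl lies at chr6:113623744-113623958 (+) and Hif1an at chr19:44562604-44562849 (+).
Vhl: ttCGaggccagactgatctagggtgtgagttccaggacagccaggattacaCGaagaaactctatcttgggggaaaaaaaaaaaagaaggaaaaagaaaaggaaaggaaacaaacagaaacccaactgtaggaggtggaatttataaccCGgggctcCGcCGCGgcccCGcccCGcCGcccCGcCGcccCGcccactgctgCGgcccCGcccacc
Hif1an: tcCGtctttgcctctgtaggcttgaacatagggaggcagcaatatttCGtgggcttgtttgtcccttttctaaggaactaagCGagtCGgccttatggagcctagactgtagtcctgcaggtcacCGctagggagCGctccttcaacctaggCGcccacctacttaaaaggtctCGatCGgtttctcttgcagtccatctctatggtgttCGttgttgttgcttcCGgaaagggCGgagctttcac
Vhl had 14 CpG in 215 bases, crowded into the end next to the gene, and Hif1an had 12 in 246 bases, spread along the stretch. Entries for 8 of the 10 genes were found, with 9 start sites, and Epas1 and Bnip3l had none. The 9 entries of 300 bases held 4 to 60 CpG with a median of 25, whereas the median of all 32851 such entries was 7. Egln1 was the densest with 60, and the second start of Egln2 was the sparsest with 4.

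The core motif that HIF dimers bind was searched in those entries as ACGTG or GCGTG on both strands, where the palindrome CACGTG counts on each strand. At least 1 match was present in 7 of 9 entries (43.8% of all entries), ACGTG in 5 of 9 (19.6%) and GCGTG in 5 of 9 (32.4%). Both motifs contain a CpG, and these entries held a median of 25 CpG against 7 over all entries. Entries of like CpG content were not compared, so the counts do not show enrichment of the motif. The entries without either motif were those of Vhl and Hif1an. One match for each of 6 genes follows with 10 flanking bases on either side and the motif in capitals. These matches were chosen because they allow the motif to be set against the KDM2A peaks. HIF binding itself was not measured.
Hif1a, chr12:73907723-73907747 (+): acagacaagcACGTGagcggggcag
Arnt, chr3:95434351-95434375 (+): atagtttgggGCGTGtcttctgccc
Egln1, chr8:124949366-124949390 (−): ccggcccgccGCGTGcgcgcggccc
Egln2, chr7:27166836-27166860 (−): cctcctgtcaACGTGcggttcgcgc
Egln3, chr12:54204089-54204113 (−): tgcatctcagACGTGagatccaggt
Bnip3, chr7:138909599-138909623 (−): cacgcgccgcACGTGccacacgctc
The Hif1a, Egln2 and Bnip3 matches began 134, 48 and 107 bases before the start site and lay under a KDM2A peak in 6 of 6 lists. Of the 7 Egln2 matches, 4 were under KDM2A in 6 lists, 2 in 3 WT lists and 1 KO list, and 1, at the second start, in 1 WT list and 1 KO list. In Bnip3 the 5 matches of the entry were all under KDM2A in 6 lists. The Arnt match was under KDM2A in 3 WT lists and 1 KO list. The Egln1 match was covered in 2 WT lists and 0 KO lists. The Egln3 match, 229 bases upstream, was covered in 0 KDM2A lists and lay under H3K36me2 in 1 list.

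**Figure D1:**
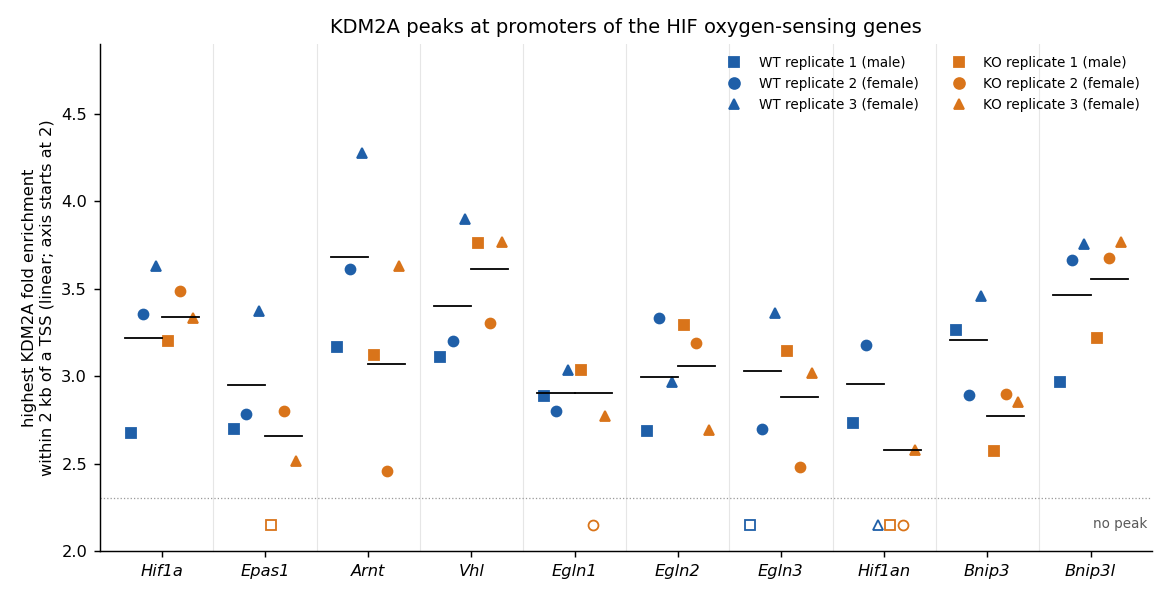
Highest KDM2A fold enrichment within 2 kb of a TSS (linear axis that starts at 2) for each gene in each of 3 WT and 3 KO lists; squares are male and circles and triangles female replicates, black lines are means over lists with a peak, and open symbols below the dotted line mark lists with no peak. The genotypes overlap for every gene with a peak in all 6 lists, and Hif1an has no peak in 3 lists.

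Among the HIF subunits, Hif1a carried 1 KDM2A peak per list at the same place. Its highest promoter fold in replicates 1, 2 and 3 was 2.67, 3.35 and 3.63 for WT and 3.20, 3.49 and 3.33 for KO. The KO values lay within the range of the WT values. The bases shared by all 6 peaks ran over chr12:73907663-73908088 and held 10.3 CpG per 100 bp, against 0.837 over the chromosomes that carry these genes. That interval is in an intron of the non-coding gene Gm15283 as well as at the Hif1a start, and another annotated coding gene, Gm49321, starts 17 bp from a Hif1a TSS, so the peak cannot be assigned to one of them. Arnt, the shared partner, reached folds of 3.16, 3.61 and 4.28 in the WT lists and 3.12, 2.46 and 3.63 in the KO lists. Both the highest and the lowest value of the 6-list genes therefore fell in Arnt, and the genotypes overlapped. In all 6 lists an Arnt peak covered chr3:95434454-95434633, which is centred in annotated coding sequence and held 7.22 CpG per 100 bp. A further peak, chr3:95489039-95489907 at another annotated Arnt start, was called in WT replicate 1 only. Epas1 differed from these genes in that its peaks were scattered around the start. WT folds were 2.70, 2.78 and 3.37, no peak was called in KO replicate 1, and it was 2.80 and 2.51 in KO replicates 2 and 3. No more than 3 of its 5 promoter peaks shared a base.

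Among the genes that act on the alpha subunit, Vhl had the highest mean fold of all 10 genes, 3.51 over 6 lists. Its values were 3.11, 3.20 and 3.90 in WT and 3.76, 3.30 and 3.77 in KO, and the genotypes overlapped. The shared bases were chr6:113623931-113624218, centred in annotated UTR, with 12.5 CpG per 100 bp. Egln2 encodes the hydroxylase PHD1, and its values were 2.68, 3.34 and 2.96 in WT and 3.29, 3.19 and 2.69 in KO, again overlapping. The interval common to its 6 lists, chr7:27166648-27166855, was the most CpG-rich of those common to 6 lists at 16.3 CpG per 100 bp. Egln1 encodes PHD2, the main oxygen sensor in most cells, with folds of 2.88, 2.80 and 3.03 in WT and 3.04 and 2.77 in KO replicates 1 and 3. No Egln1 promoter peak was called in KO replicate 2. In WT replicate 3 and in both KO lists with a peak, the Egln1 peaks lay on either side of the start site and left the start itself uncovered. Egln3 encodes PHD3, and it had no promoter peak in WT replicate 1, 2.70 and 3.36 in WT replicates 2 and 3, and 3.14, 2.48 and 3.02 in KO. The 5 lists with a peak shared chr12:54203432-54203653, centred in coding sequence, with 7.66 CpG per 100 bp.

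Hif1an, the asparaginyl hydroxylase gene, was the least occupied of the 10. It had a peak in WT replicates 1 and 2, at folds of 2.73 and 3.18, and in KO replicate 3 at 2.58. The other 3 lists had none. The bases common to the 3 peaks, chr19:44562647-44562807, held 4.97 CpG per 100 bp. Among the other genes, the promoter bases common to most lists were less dense only at Egln1. There the 16 bp shared by the 5 lists with a peak, chr8:124949737-124949752, held 0 CpG.

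The mitophagy receptor genes had peaks in all 6 lists. Bnip3 reached 3.26, 2.89 and 3.46 in WT and 2.57, 2.90 and 2.85 in KO, so that 1 KO value exceeded the lowest WT value by less than 0.01. A pseudogene, Gm18258, starts 1112 bp from a Bnip3 TSS. Bnip3l reached 2.97, 3.67 and 3.75 in WT and 3.22, 3.68 and 3.77 in KO, or 3.46 ± 0.432 against 3.55 ± 0.294 (SD, n = 3). The shared bases were chr7:138909330-138909642 for Bnip3 and chr14:67008385-67008860 for Bnip3l, with 10.2 and 10.9 CpG per 100 bp. In order of mean fold the genes ran Vhl, Bnip3l, Arnt, Hif1a, Egln2, Bnip3, Egln3, Egln1, Epas1 and Hif1an, from 3.51 to 2.83. The widest step between neighbours was 0.253, between Hif1a and Egln2, and the SD over lists was 0.332 and 0.292 for those genes, so no neighbours in the order stood apart beyond their spread.

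No difference in KDM2A fold between KO and WT passed the test at these genes. The fit (limma on log2 fold, each library centred on its median) held the 6 genes with a peak in every list, and 0 were called after Benjamini-Hochberg adjustment, as were 0 (0%) of all 5786 genes tested, with 5.17% at an unadjusted p under 0.05. The log2 difference, KO minus WT, was −0.21 ± 0.15 (SE) for Arnt, −0.14 ± 0.11 for Bnip3, 0.09 ± 0.11 for Egln2, 0.10 ± 0.13 for Bnip3l, 0.13 ± 0.13 for Hif1a and 0.15 ± 0.13 for Vhl, with limma adjusted p between 0.914 and 0.949. Leaving out 1 library moved each of these 6 differences by over 1.5 times in at least 1 case, with no change of sign. None of the 6 had every KO list below every WT list (5.17% of genes tested) or above it (5.2%).

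The extent of the KDM2A peaks was compared as promoter coverage. Promoter coverage, the percent of the windows under peaks, is not comparable between genes, because the windows ranged from 4001 bp at Egln1, Egln3 and Hif1an to 18116 bp at Arnt. Egln1 had 31.4%, 34.4% and 29.9% in WT and 23.7%, 0% and 24.2% in KO. The means were 31.9 ± 2.33% in WT and 15.9 ± 13.8% in KO (SD, n = 3). Every KO value lay below every WT value, which held for 1 of 10 genes and for 7.03% of all coding genes. This depended on the scaling. Divided by the percent of the genome that each list covered, Egln1 had 28.4, 44.7 and 34.1 in WT and 48.1, 0 and 33.8 in KO, so that KO replicate 1 became the highest of the 6 lists. On that scale 0 of the 10 genes had every KO list below every WT list (1.95% of coding genes), whereas with equal numbers of peaks per list Egln1 again was the one gene that did (4.49%). Egln2 had 43.9%, 22.1% and 26.6% in WT and 16.8%, 10.7% and 24.1% in KO, and Hif1an had 39.0%, 14.5% and 0% against 0%, 0% and 8.57%. The differences were −15.9 ± 8.28 percentage points (SE) at Egln1, −13.7 ± 8.09 at Egln2 and −15.0 ± 9.10 at Hif1an, with limma adjusted p of 0.563, 0.583 and 0.592. Single lists weighed on them: the Egln1 difference was −7.97 without KO replicate 2, the Egln2 difference −7.16 without WT replicate 1, and the Hif1an difference −4.42 without WT replicate 1 and −23.9 without WT replicate 3. None of the 10 genes passed in this fit, in which limma called 0 (0%) of 11571 genes, with 8.87% at an unadjusted p under 0.05. The median difference over the 10 genes was −1.10 percentage points, beside −2.39 over all coding genes with a peak in at least 1 list. Coverage was lower in KO for 74.95% of all genes tested, but for 38.2% after division by genome share, and the differences then were −8.41 at Egln1, −2.05 at Egln2 and −14.0 at Hif1an, as ratios to the genome share. As deposited, coverage of the other 9 genes overlapped between genotypes, and 0 of 10 genes had every KO list above every WT list (0.666%). After division by genome share 2 of 10 did, Bnip3 and Bnip3l (5.67%), and with equal numbers of peaks 0 of 10 (1.1%).

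**Figure D2:**
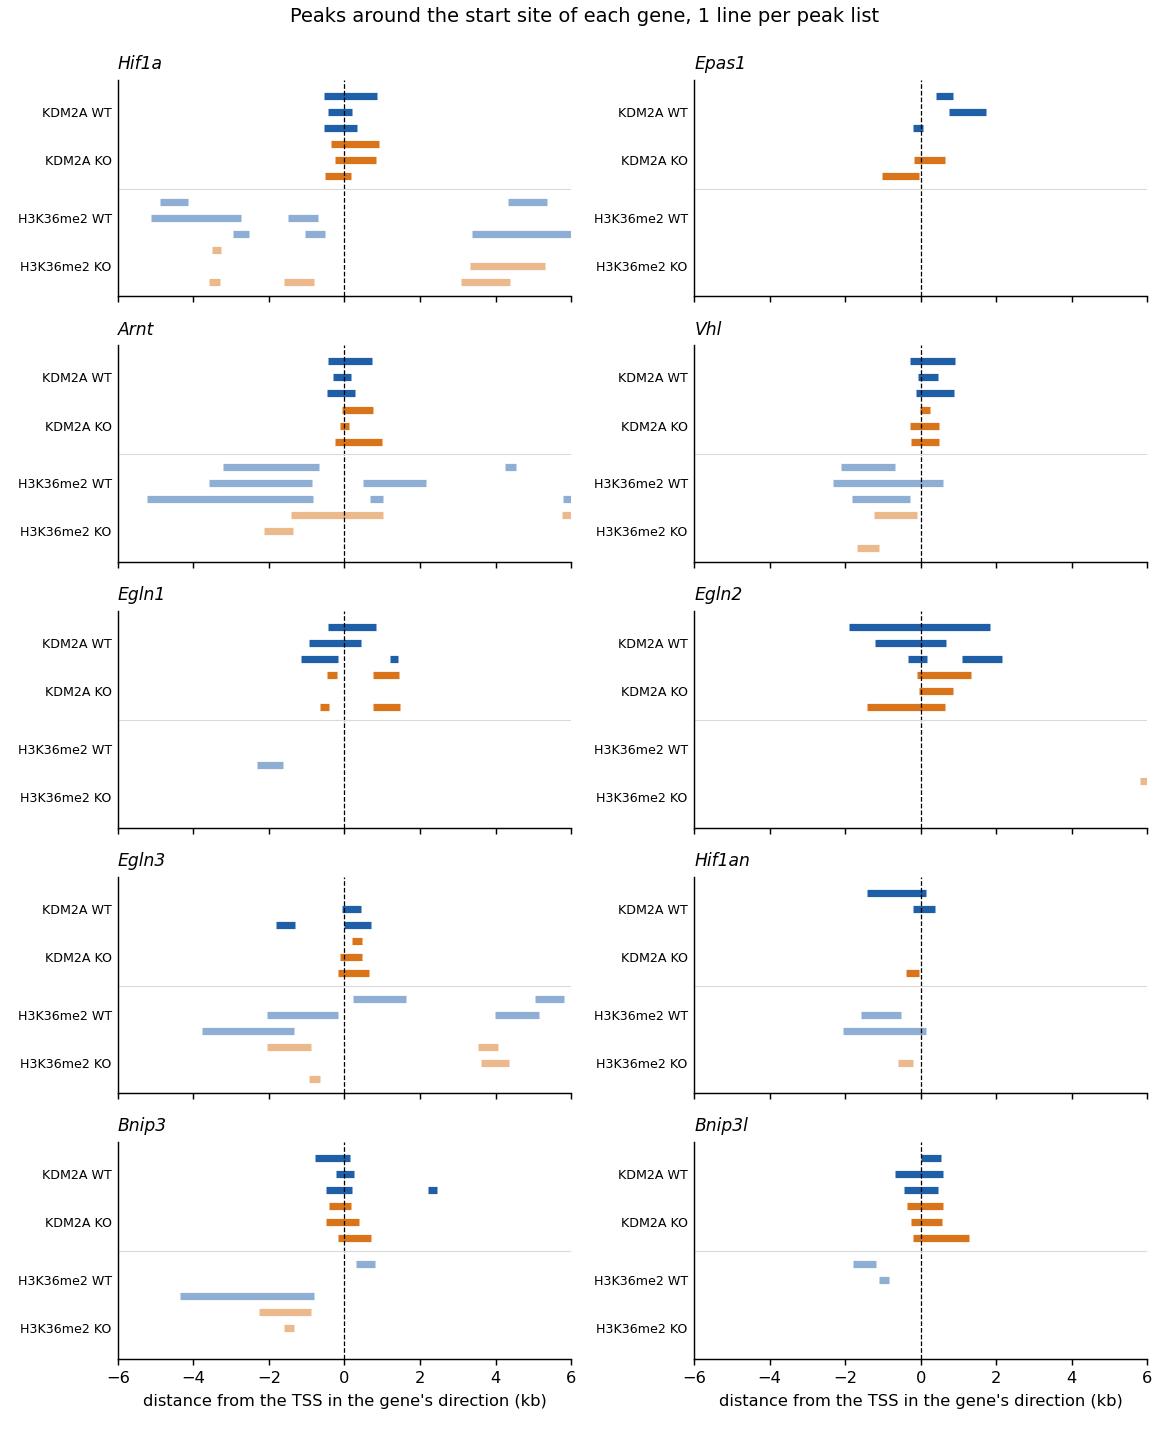
Peaks of KDM2A (upper, full colour) and H3K36me2 (lower, pale) drawn as horizontal bars against the distance in kb from the TSS nearest to the most shared KDM2A interval, in the direction of transcription; blue lines are WT and orange lines KO, with replicates 1, 2 and 3 from top to bottom in each group. KDM2A bars sit on or next to the start site, and most H3K36me2 bars do not overlap the KDM2A bars.

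Few KDM2A promoter peaks of these genes shared bases with H3K36me2. Of the 54 combinations of gene and list with a KDM2A promoter peak, 4 shared at least 1 base with an H3K36me2 peak of the same genotype and replicate (20.3% over all coding genes): Hif1a in WT replicate 3, Vhl in WT replicate 2, Egln3 in WT replicate 3 and Arnt in KO replicate 1. In 18 of the 54 no H3K36me2 peak was called in the promoter windows or the body at all, and in the 32 that had one without a shared base the gap was 74 to 24817 bp, with a median of 664 bp. Where both antibodies had a peak in the promoter windows, 4 of 28 combinations shared a base, beside 37.6% over all coding genes. Of the 62 KDM2A peaks in promoter windows 48 covered a TSS, against 4 of 37 H3K36me2 peaks, and the median distance of the peak centre to the nearest TSS was 207 bp and 1114 bp. At Vhl, for example, KDM2A straddled the start in 6 lists, while H3K36me2 was upstream in 5, centred between −1397 and −671 bp of the start, with 1 of these peaks, in WT replicate 2, reaching across it. The pattern recurred at Arnt, where upstream H3K36me2 peaks in WT replicates 1, 2 and 3 and KO replicate 2 ended before the KDM2A peak. The 2 antibodies were used on separate amounts of chromatin, so that sharing of a base does not show presence on the same molecule.

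**Figure D3:**
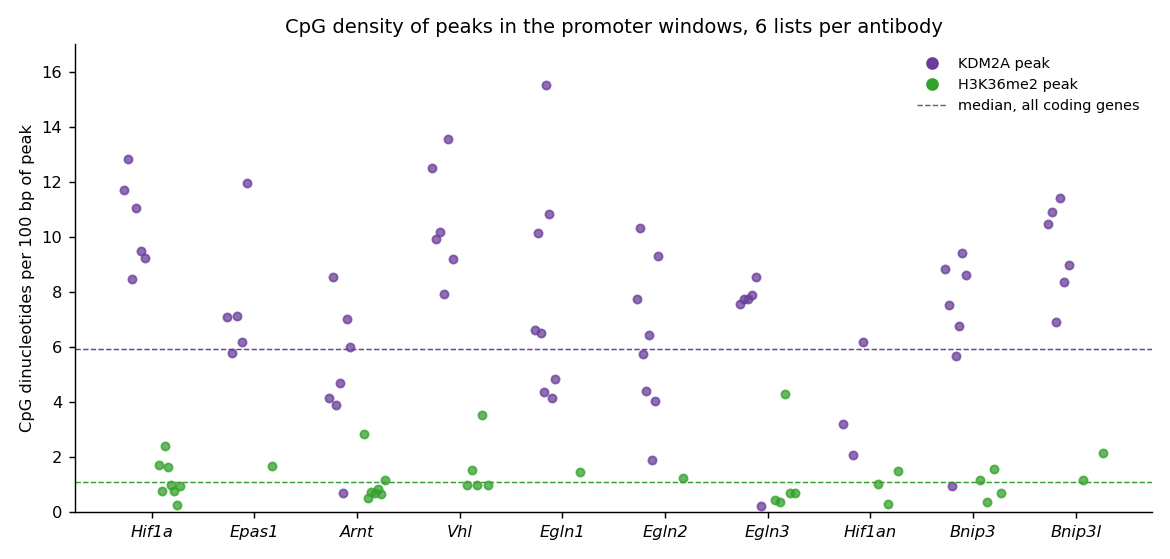
CpG dinucleotides per 100 bp of each peak in the promoter windows, for KDM2A (purple) and H3K36me2 (green), with 1 point per peak over 6 lists per antibody; dashed lines are the medians of all such peaks at coding genes, 5.90 for KDM2A and 1.08 for H3K36me2. KDM2A points lie above the H3K36me2 points at most genes, with a few KDM2A peaks under 2 CpG per 100 bp at Arnt, Egln2, Egln3 and Bnip3.

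The sequence under the peaks differed accordingly. KDM2A peaks in the promoter windows held a median of 7.73 CpG per 100 bp, and H3K36me2 peaks there 0.968, with a highest value of 4.27 at Egln3. Over all coding genes the medians were 5.90 and 1.08, and 72.2% of KDM2A peaks but 20.1% of H3K36me2 peaks in promoter windows covered a TSS. The KDM2A peaks of low CpG density were each found in a single list, such as the one 1561 bp upstream of Egln3 in WT replicate 3 with 0.205 CpG per 100 bp.

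**Figure D4:**
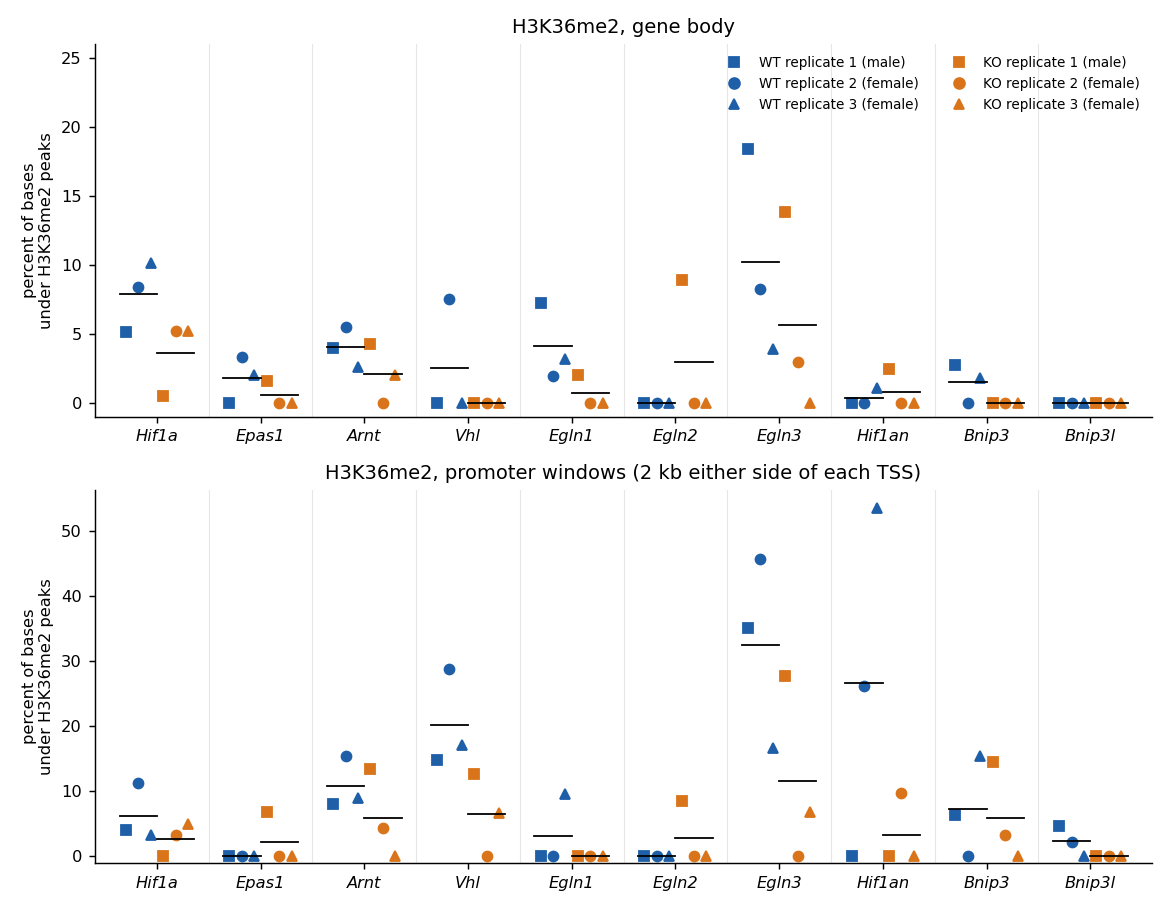
Percent of bases under H3K36me2 peaks in the gene body (upper) and in the promoter windows (lower) for each gene in each of 3 WT and 3 KO lists; squares are male and circles and triangles female replicates, and black lines are means. Values at 0 mean that no peak was called, and the male KO list is often the highest of the KO lists.

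H3K36me2 covered little of these gene bodies. A peak was present in the body in at least 2 WT lists for 6 of 10 genes (42.1% of coding genes) and in at least 2 KO lists for 3 of 10 (25.9%), namely Hif1a, Arnt and Egln3. The most extensive coverage was at Egln3, with 18.4%, 8.22% and 3.94% in WT and 13.9%, 2.99% and 0% in KO. At Hif1a the WT lists had 5.16%, 8.41% and 10.2% and the KO lists 0.505%, 5.19% and 5.21%, and both higher KO values exceeded the lowest WT value. These Hif1a peaks were intronic, and those of WT replicates 1 and 3 and KO replicates 2 and 3 overlapped downstream of the main start, where 68 bp, chr12:73912225-73912292, were common to these 4 lists. Arnt had 3.98%, 5.49% and 2.57% in WT and 4.29%, 0% and 2.01% in KO. Egln1 had 7.27%, 1.98% and 3.19% in WT and 2.06%, 0% and 0% in KO, in introns centred 11177 to 29960 bp downstream of the start. Epas1 had 0%, 3.32% and 2.00% in WT and 1.61%, 0% and 0% in KO. Bnip3 had 2.72%, 0% and 1.83% in WT and no peak in KO. The remaining genes were nearly free of body peaks: Vhl had 7.53% in WT replicate 2 only, Egln2 8.89% in KO replicate 1 only, Hif1an 1.07% in WT replicate 3 and 2.42% in KO replicate 1, and Bnip3l none in any list.

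Mean gene body coverage was lower in KO for 7 of 10 genes (49.8% of all coding genes, among them those with no peak), higher for 2 and equal at 0% for Bnip3l. All 10924 coding genes that were lower in KO were among the 12761 with a body peak in at least 1 list. None of the 10 genes had every KO list below every WT list (13.3% of coding genes). The median difference was −1.71 percentage points over the 10 genes, beside −3.25 over the 12761 coding genes with a body peak in at least 1 list. The former was −0.24 with equal numbers of peaks, 0 at a −log10 q of at least 2 and −0.82 without WT replicate 2. The test held the 7 genes covered in at least 2 lists, and limma called none of them and 0 (0%) of 10351 genes, with 20.8% at an unadjusted p under 0.05. With female libraries only, limma called 2 of the 5 members tested, Egln1 and Epas1, both lower in KO, beside 35.9% of all genes tested. Over all libraries the differences were −4.27 ± 3.14 percentage points (SE) at Hif1a, −3.46 ± 1.66 at Egln1 and −4.55 ± 5.40 at Egln3, with limma adjusted p of 0.365, 0.246 and 0.559. Without WT replicate 1 the Egln1 difference was −1.90 and the Egln3 difference −0.46, whereas at Egln3 it was −7.67 without WT replicate 3, −8.68 when KO replicate 1 was left out and −1.75 when KO replicate 3 was. Leaving out KO replicate 1 gave −2.71 at Hif1a. The Hif1a difference turned to +0.562 with equal numbers of peaks per list and was also above 0 after division by the genome share of each list. Over all genes tested, body coverage was lower in KO for 90.3% as deposited and for 67.6% after that division. Hif1a was the one gene of the 10 with a body peak in all 6 lists, and its log2 fold differed by 0.06 ± 0.08 (SE), with a limma adjusted p of 0.971 in a fit that called 0 (0%) of 3261 genes and had 5.61% at an unadjusted p under 0.05.

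H3K36me2 was called in the promoter windows of some of these genes as well. At least 2 WT lists had a promoter peak for 7 of 10 genes (40.9% of coding genes) and at least 2 KO lists for 5 of 10 (20.9%). Vhl had 14.8%, 28.7% and 17.1% in WT and 12.7%, 0% and 6.64% in KO, and every KO value lay below every WT value. Vhl was the only one of the 10 genes with that property (11.1% of coding genes). Divided by genome share, the Vhl values were 3.55, 5.40 and 3.26 in WT and 3.49, 0 and 4.597 in KO, and the genotypes overlapped. None of the 10 genes was without overlap on that scale (5.28% of coding genes had every KO list below every WT list) or, in that direction, with equal numbers of peaks (4.24%). Egln3 had 35.1%, 45.8% and 16.6% in WT and 27.7%, 0% and 6.90% in KO. At Hif1an, where KDM2A was sparsest, H3K36me2 reached 0%, 26.2% and 53.6% in WT and 0%, 9.77% and 0% in KO. The WT lists of Hif1an were thus as far apart as 0% and 53.6%. The differences were −13.8 ± 8.40 percentage points (SE) at Vhl, −21.0 ± 11.7 at Egln3 and −23.3 ± 11.4 at Hif1an, with limma adjusted p of 0.336, 0.307 and 0.296. The Hif1an difference was −9.84 without WT replicate 3 and −36.6 without WT replicate 1. With SE of 1.70 to 11.7 percentage points over the members in this fit, and 2.59 to 9.10 in that of KDM2A promoter coverage, a miss of the threshold does not show that the genotypes were alike. Among the 7 of 10 genes that entered the fit none passed, and limma called 0 (0%) of 10360 genes, with 16.1% at an unadjusted p under 0.05. The median difference over the 10 genes was −3.34 percentage points, beside −5.55 over coding genes with a peak in at least 1 list. Of all genes tested 88.5% had lower coverage in KO, and 66.1% after division by genome share. Egln2 and Epas1 had an H3K36me2 promoter peak in KO replicate 1 only, Egln1 in WT replicate 3 only, and Bnip3l in WT replicates 1 and 2 only.

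The wider pathway was read from lists of 9 further components of the HIF machinery (Elob, Eloc, Cul2, Rbx1, Ep300, Crebbp, Cited2, Hif3a and Arnt2) and 30 HIF targets. A KDM2A promoter peak was present in at least 2 WT lists for 8 of 9 machinery genes and 27 of 30 targets (47.7% of all coding genes), and in all 6 lists for 6 of 9 and 18 of 30 (26.4%). H3K36me2 body peaks were present in at least 2 WT lists for 2 of 9 and 16 of 30 (42.1%). No gene of either list was called by limma after adjustment in the 5 fits over all libraries. With female libraries only, 5 of 15 targets (Aldoa, Ankrd37, Hk2, Ldha and Mxi1) and 0 of 3 machinery genes were called for H3K36me2 body coverage, all lower in KO, where limma called 3008 of 8381 genes. In the fits over all libraries, 1 of 18 targets tested for KDM2A fold (5.17% of all genes tested), 3 of 27 for KDM2A promoter coverage (8.87%), 5 of 18 for H3K36me2 body coverage (20.8%), 5 of 24 for H3K36me2 promoter coverage (16.1%) and 1 of 4 for H3K36me2 body fold (5.61%) had an unadjusted p under 0.05, and 0 of the machinery genes did. The lowest p of these was at Slc2a1, which encodes the glucose transporter GLUT1 and is named here after its values were seen. Its H3K36me2 promoter coverage reached 42.9%, 39.3% and 44.0% in WT and 0% in each KO list, with a limma adjusted p of 0.265. Every KO list of Slc2a1 stayed below every WT list after division by genome share. With equal numbers of peaks per list this was lost, as 0 of 30 targets had that property.

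For KDM2A fold as deposited, 2 of 24 list genes had all KO values below all WT values (10.1% of genes tested), and after each library was centred 1 of 24 did, Ero1l (5.17% of genes tested). Without centring 68.7% of all genes tested were lower in KO, and with it 49.3%. The 2 genes were Ero1l, an oxidoreductase of the endoplasmic reticulum, at 3.63, 3.66 and 3.99 in WT and 3.06, 3.19 and 2.77 in KO, and Vegfa, the angiogenic growth factor, with 3.18, 3.64 and 2.96 in WT and 2.74, 2.96 and 2.80 in KO. The lowest WT and highest KO values of Vegfa differed by less than 0.01. Their limma adjusted p was 0.914 and 0.928. For H3K36me2 body coverage 6 of 30 targets and 0 of 9 machinery genes had every KO list below every WT list as deposited, beside 13.3% of all coding genes. After division by genome share 3 of 30 targets did, Ldha, Mxi1 and Higd1a (4.85% of coding genes), and with equal numbers of peaks 2 of 30, Mxi1 and Plin2 (5.96%). Among the 6 targets without overlap as deposited, the largest differences were at Ankrd37, Pfkfb4 and Plin2, whose genotypes all overlapped after division by genome share. Ankrd37, a small ankyrin repeat gene, had 35.3%, 45.2% and 48.7% in WT and 29.5%, 6.50% and 13.8% in KO. Pfkfb4, a glycolytic regulator, had 26.7%, 16.6% and 26.9% in WT and 15.2%, 3.58% and 4.10% in KO. Plin2, a lipid droplet protein, had 13.6%, 7.33% and 13.1% in WT and 6.14%, 0% and 0% in KO. Of the H3K36me2 promoter windows, those of 10 of 30 targets and 2 of 9 machinery genes had every KO list below every WT list in coverage as deposited (11.1% of coding genes), 6 of 30 and 1 of 9 after division by genome share (5.28%), and 0 of 30 and 0 of 9 with equal numbers of peaks (4.24%). For KDM2A promoter coverage this held for 3 of 30 targets and 1 of 9 machinery genes as deposited (7.03%) and for 0 of either list after division by genome share (1.95%). With equal numbers of peaks it held for 2 of 30 targets, Adm and Hmox1, and 1 of 9 machinery genes, Elob (4.49%). In the opposite direction, 1 target, Slc2a1, had every KO list above every WT list in KDM2A promoter coverage as deposited (0.666%), with 26.1%, 29.5% and 36.7% in WT and 52.1%, 52.6% and 50.0% in KO. Slc2a1 was 1 of 5 such targets after division by genome share (5.67%). With equal numbers of peaks 2 of 30 targets did so, Slc2a1 and Bhlhe40 (1.1%). The difference in coverage at Slc2a1 was 20.8 ± 8.37 percentage points (SE), with a limma adjusted p of 0.554. Its log2 KDM2A fold differed by −0.02 ± 0.15 (SE), with a limma adjusted p of 0.998.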

How the data were processed

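ChIP-seq libraries were made from 4 groups of 3 samples, WT and KO with antibodies to KDM2A or H3K36me2, and the 6 input libraries were not used here. Peak calling by the authors ran in nf-core/chipseq, with BWA alignment to GRCm38 and MACS2 in broad mode, and each library has its own deposited list. The caller's version and thresholds were not given in the sources used here. The deposited fold of a peak is a ratio over local background and is not normalized between libraries. The deposited −log10 p-value and −log10 q-value served the alternatives and the count of peaks at a −log10 q of at least 2, and the lowest −log10 q per list was 1.00 to 1.03. Depth is unknown, so no counting interval can be given.

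Starts were converted to 1-based positions. For each gene of GENCODE M21 the number of peaks, the percent of bases under peaks and the highest fold were computed in the promoter windows and the gene body (Python 3.11.15, pandas 2.3.3, minimum overlap 1 bp). Aldoa has 2 entries, and the longer one was used. KO and WT were compared with limma 3.58.1 (R 4.3.3; lmFit and eBayes with trend) over all genes covered in at least 2 libraries, or with a peak in all 6 for log2 fold, and p-values were adjusted by the Benjamini-Hochberg method, with 0.05 as threshold. The scripts were tested on simulated data. All 10 members were named, and from the pathway lists up to 3 genes per direction with the largest difference among those whose genotypes did not overlap. The members and lists were chosen with earlier results of these data known. Nothing in the labels says that replicates with the same number are paired, and whether replicates are separate cultures or animals is known only through the sex given in their labels, so that p-values measure the spread between these libraries. Promoter sequences and CpG counts came from RefSeq GRCm38.p6. Alternatives were equal numbers of peaks, a −log10 q of at least 2, a 1 kb window, other scalings, the replicate block, female libraries only and leaving out each library.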

Additional observations from a re-analysis of the deposited data

Results flagged for a closer look

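In 4 cases, at 3 of the 10 genes, the male KO list lay on one side of the male WT list and every female KO list lay on the other side of every female WT list. Coverage here is as deposited, and after division by genome share 1 of these 4 cases, Epas1 body coverage, still met that description, while 3 others met it on that scale only (KDM2A promoter coverage of Epas1 and Egln1, and body coverage of Hif1a). The male Bnip3 difference then was above 0, like that of the females, and the female lists of Arnt overlapped in both measures. This difference between the sexes was not tested, and each sex comparison rests on 1 male list against 1, and 2 female lists against 2. After division by genome share, 4 combinations of gene and coverage measure met the description and 26 did not. The same share over all coding genes was not computed, so the cases cannot be called particular to these genes. As deposited, KDM2A promoter coverage of Bnip3 differed by −4.38 percentage points (KO minus WT) in the male and by 7.45 on average in the females. H3K36me2 body coverage of Epas1 differed by 1.61 in the male and −2.66 in the females, and that of Arnt by 0.309 and −3.03. H3K36me2 promoter coverage of Arnt differed by 5.46 in the male and −10.1 in the females. The male KO list had 106720 H3K36me2 peaks and the female KO lists 37447 and 45180, and the part of this in the H3K36me2 differences was not tested.

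KDM2A peaks inside genes and away from promoter windows were outside the comparisons of the report. An intronic KDM2A interval of Egln3, at chr12:54190616-54193077, was called in 2 KO lists (replicates 1 and 3) and in 0 WT lists. It lay 11646 bp downstream of the start and held 3.64 CpG per 100 bp where the lists overlapped. No other such KDM2A interval of these genes was called in at least 2 lists of one genotype and 0 of the other. The share of such intervals over all coding genes was not computed.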

How the results depend on the processing

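With each library left out limma called 0 to 0 genes in each of the 5 fits, while the number at an unadjusted p under 0.05 ran from 620 to 3466 for H3K36me2 body coverage (2153 with all libraries), 615 to 2144 for H3K36me2 promoter coverage (1667), 615 to 1271 for KDM2A promoter coverage (1026), 256 to 327 for KDM2A fold (299) and 126 to 219 for H3K36me2 body fold (183). The lowest of the H3K36me2 coverage counts came without KO replicate 2 or 3, that of KDM2A coverage without KO replicate 2, and the highest for H3K36me2 body coverage without KO replicate 1. Elsewhere, 1 gene was called for KDM2A promoter coverage with no filter, 5 for H3K36me2 promoter coverage at −log10 q of at least 2, and 3008 (3004 lower in KO) for H3K36me2 body coverage in female libraries only, 35.9% of the 8381 tested, among them 2 of 5 members, Egln1 (−2.58 percentage points, limma adjusted p = 0.0472) and Epas1 (−2.66, limma adjusted p = 0.0488). The cause was not tested. With the replicate block, limma called 1 gene for H3K36me2 body fold and 0 in the other fits, and libraries of the same number were not correlated above 0.1. The members' median H3K36me2 body difference moved from −1.71 to −0.24 with equal numbers of peaks and to 0 at −log10 q of at least 2, and lay between −2.14 and −0.82 when each library was left out, the latter without WT replicate 2. The Hif1a body difference reversed to 0.56 with equal numbers of peaks and to 0.76 (in units of genome share) after division by genome share, and the Egln2 KDM2A log2 fold to −0.0101 in females only. Without each library, 8 to 9 members had a KDM2A promoter peak in WT and 7 to 8 in KO, counting peaks in both remaining lists.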
